A study of Mus musculus with 6 samples.

Results

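The cytochrome P450 genes were followed in the distal colon of ChREBP knockout (KO) and wild-type (WT) mice. The rule took every row whose symbol is Cyp followed by a family number, 1 letter and a gene number, which leaves Cyp51 out, and it found 67 of the 19844 genes in the table. ChREBP, encoded by Mlxipl, is a transcription factor that responds to glucose. There were 3 KO and 3 WT mice of the C57BL6 strain, and both groups received azoxymethane (AOM), a carcinogen, with dextran sulfate sodium (DSS), which injures the colon lining. All 6 colons were taken on day 17, and animals without AOM and DSS are not part of the comparison. The labels name neither the deleted part of Mlxipl nor the cells in which it was deleted, and they give no age. Values are the authors' FPKM (fragment counts scaled for transcript length and for library size), 1 library per mouse.

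P450 enzymes are heme proteins that insert an oxygen atom into fat-soluble molecules. Most sit in the endoplasmic reticulum and draw electrons from the reductase Por, whereas those in mitochondria use ferredoxin. Families 1 to 3 mainly oxidise drugs, dietary compounds and carcinogens, family 4 mainly fatty acids and eicosanoids, and the higher families sterols, bile acids, vitamin D, retinoic acid and steroid hormones. The gut lining expresses its own set, which differs from that of the liver. Azoxymethane itself becomes a DNA-methylating agent after hydroxylation, a step in which Cyp2e1 is the best known enzyme.

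The promoters of 5 members show the sequence features searched. These are the most abundant member (Cyp2c55), the azoxymethane enzyme (Cyp2e1) and the classical dioxin-inducible gene (Cyp1a1). The others are the member with the smallest p (Cyp26b1) and an expressed member that holds an E-box, CACGTG (Cyp2j6). Each line gives the 150 bases before the RefSeq start on build GRCm38.p6, read 5′ to 3′ on the gene's strand. Capitals mark TATAAA, the TATA box, GCGTG, the core of the xenobiotic response element bound by the aryl hydrocarbon receptor, or CACGTG, the E-box.
Cyp2c55, chr19:39006869-39007018, plus strand: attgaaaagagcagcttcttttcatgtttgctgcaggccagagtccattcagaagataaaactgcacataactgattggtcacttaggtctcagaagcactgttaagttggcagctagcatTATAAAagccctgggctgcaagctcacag
Cyp2e1, chr7:140763669-140763818, plus strand: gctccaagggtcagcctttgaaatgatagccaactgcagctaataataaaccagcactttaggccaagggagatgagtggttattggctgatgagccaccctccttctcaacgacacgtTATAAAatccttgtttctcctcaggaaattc
Cyp1a1, chr9:57697463-57697612, plus strand: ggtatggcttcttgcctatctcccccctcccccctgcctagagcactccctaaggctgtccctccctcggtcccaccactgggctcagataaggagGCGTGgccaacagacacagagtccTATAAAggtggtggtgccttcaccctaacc
Cyp26b1, chr6:84593811-84593960, minus strand: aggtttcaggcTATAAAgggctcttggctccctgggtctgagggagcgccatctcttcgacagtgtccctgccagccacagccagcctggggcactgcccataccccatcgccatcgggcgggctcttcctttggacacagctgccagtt
Cyp2j6, chr4:96553652-96553801, minus strand: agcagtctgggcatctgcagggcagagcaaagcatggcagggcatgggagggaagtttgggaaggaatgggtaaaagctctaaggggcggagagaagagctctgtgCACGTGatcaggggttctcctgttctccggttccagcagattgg

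Promoter windows of 300 bases, 250 before the start to 50 after it, were held for 51 of the 67 members. TATAAA on the gene's strand was found in 16 of the 51, or 31.4%, against 9.77% of 27025 genes with such windows. In Cyp2c55, Cyp2e1 and Cyp1a1 it began 29, 31 and 30 bases before the start, and in Cyp26b1 139 bases before it. GCGTG on either strand was found in 14 of the 51 members (27.5%, against 35.2% of all genes). CACGTG, searched on both strands, was found in Cyp2j6 and Cyp4v3 only (3.92% of members, against 8.09% of all genes). Of the 25 members with windows that were expressed enough to be tested below, 6 held TATAAA (24%), 8 GCGTG (32%) and 2 CACGTG (8%). The strict carbohydrate response element, a pair of perfect E-boxes 5 bases apart that would also count as E-boxes, was found in 0 members and 0 of 27025 genes. A form absent from all genes searched cannot tell the members from other genes. The D-box TTANGTAA, read on both strands, was found in 0 members and 2.72% of all genes. The D-box is bound by clock-controlled factors such as Dbp. A match describes the letters only.

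The tissue carried colon markers in all 6 libraries. Epcam, of the epithelium, lay between 684.86 and 812.18 FPKM, and Krt20, of mature colon surface cells, between 236.53 and 488.76. Of 7 matched liver markers 5 stayed at or under 1.04 FPKM, the highest of them Alb, while Ttr lay between 25.18 and 41.74 and Tat between 9.46 and 22.35. Of 5 matched small intestine markers Lct, Apoa4 and Alpi stayed at or under 0.42 FPKM, while Lyz1 lay between 17.17 and 25.29 and Fabp6 between 2.27 and 8.14. Mlxipl read 3.40, 5.66 and 5.04 FPKM in KO replicates 1 to 3, against 5.84, 7.49 and 7.27 in WT replicates 1 to 3. All KO values of Mlxipl were under all WT values, as in 4.14% of all genes tested. Its log2 fold change was -0.48 (SE 0.18), and it did not pass the test (limma adjusted p = 0.9995). The transcript therefore remained in the KO libraries, and what is left of the protein is not known from these values. The labels call all 6 mice female, yet the Y-linked gene Ddx3y lay between 9.51 and 12.11 FPKM and Xist between 0.02 and 0.04. The Y-linked genes Eif2s3y (23.28 to 30.75), Kdm5d (7.85 to 9.54) and Uty (5.67 to 6.60) were also expressed in every library. These transcripts are those of male tissue, which goes against the label. Depth, estimated from the step of 1 read in short RNA genes, was 17700000 to 18425000 reads per library.

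The P450 transcripts of the colon were concentrated in a few genes of families 2, 3 and 4. Cyp2c55 alone carried 27.3% of the summed FPKM of the 67 members over the 6 libraries. With Cyp2d34 and Cyp2c68 the share was 49.3%, and the 15 highest members carried 89.5%. A mean of 10 FPKM or more was reached by 17 members and 5 FPKM or more by 21. At the other end, 33 members stayed under 1 FPKM in every library, and 21 were listed at 0 in at least 1 library. For a transcript of 1995 bases, that of Cyp2c55, 1 read was worth 0.0283 FPKM, so values of 0.02 to 0.09 in genes of that size stand for a few reads. The summed FPKM of the members was 585.7, 886.7 and 827.1 in KO replicates 1 to 3, against 745.3, 691.2 and 816.8 in WT replicates 1 to 3. KO replicate 1 was the lowest and KO replicate 2 the highest, so the KO values enclosed the WT values.

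**Figure D1:**
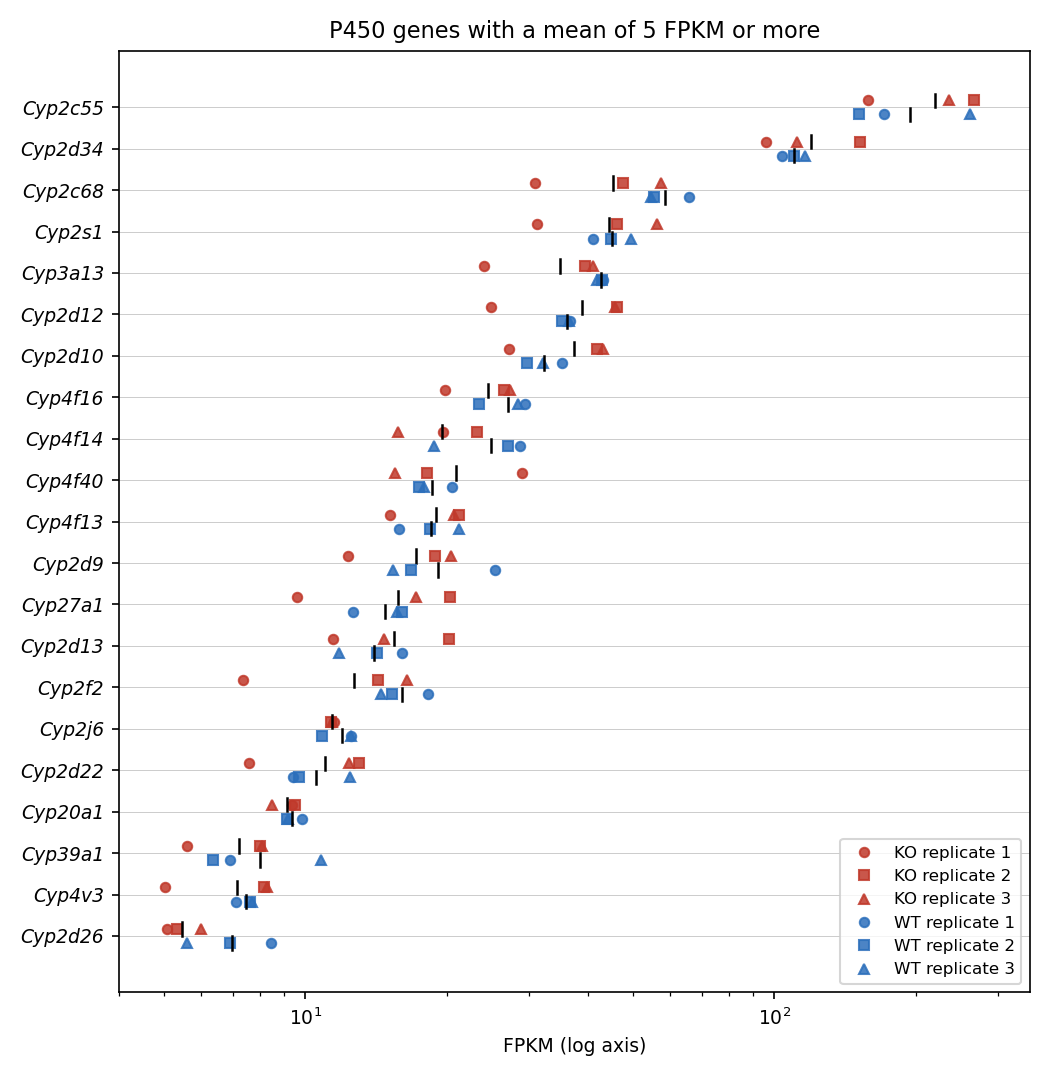
FPKM on a log axis of the 21 P450 genes with a mean of 5 FPKM or more, 1 point per library, with KO above WT in each row and a black bar at the group mean. The groups overlap in 20 of the 21 rows, and KO replicate 1 (red circle) is the leftmost point in 16 of them.

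No P450 gene passed the test of genotype. limma compared KO with WT on log2(FPKM + 1) in the 13247 genes with at least 1 FPKM in 3 of the 6 libraries. Of the 67 members 32 met that filter, and 0 of them were called at an adjusted p under 0.05, against 2 of 13247 genes, or 0.0151%. At an unadjusted p under 0.05 limma counted 1 of 32 members, against 3.4% of all genes tested, with 1 higher in KO (1.7% of all genes) and 0 lower in KO (1.7%). Without KO replicate 1 that count became 3 higher and 0 lower, beside 807 of the 13247 genes in either direction. Without WT replicate 3 it was 0 higher and 2 lower, beside 458 genes. Without KO replicate 3 it was 1 higher and 1 lower, beside 539 genes. The KO and WT values did not overlap in 3 of the 32 members (8.67% of all genes), higher in KO in Cyp26b1 (4.53% of all genes) and lower in Cyp3a13 and Cyp2w1 (4.14%). The log2 fold changes were positive in 15 members and negative in 17, with a median of -0.02. Over all 13247 genes tested, 6986 were positive and 6261 negative, with a median of 0.01, the background for every count of signs below. A share near the background is not a result about the members. For 30 of the 32 the 95% interval of log2(FPKM + 1) excluded a 2-fold difference both ways (97.0% of all genes), and the exceptions were Cyp26b1 and Cyp2e1. With a pseudocount of 0.1 the exceptions numbered 5, with Cyp2f2, Cyp2c65 and Cyp2r1 added, and over the libraries left out in turn they numbered 3 to 5, with Cyp2c68 among them. The added 1 understates changes in low genes. Of the 35 members under the filter 14 were above 0 in every library, and in 2 of them, Cyp4x1 and Cyp4f37, all KO values were under all WT values, against 3.8% of the 3478 genes of that kind. Every tested member named has a limma adjusted p of 0.9995.

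**Figure D2:**
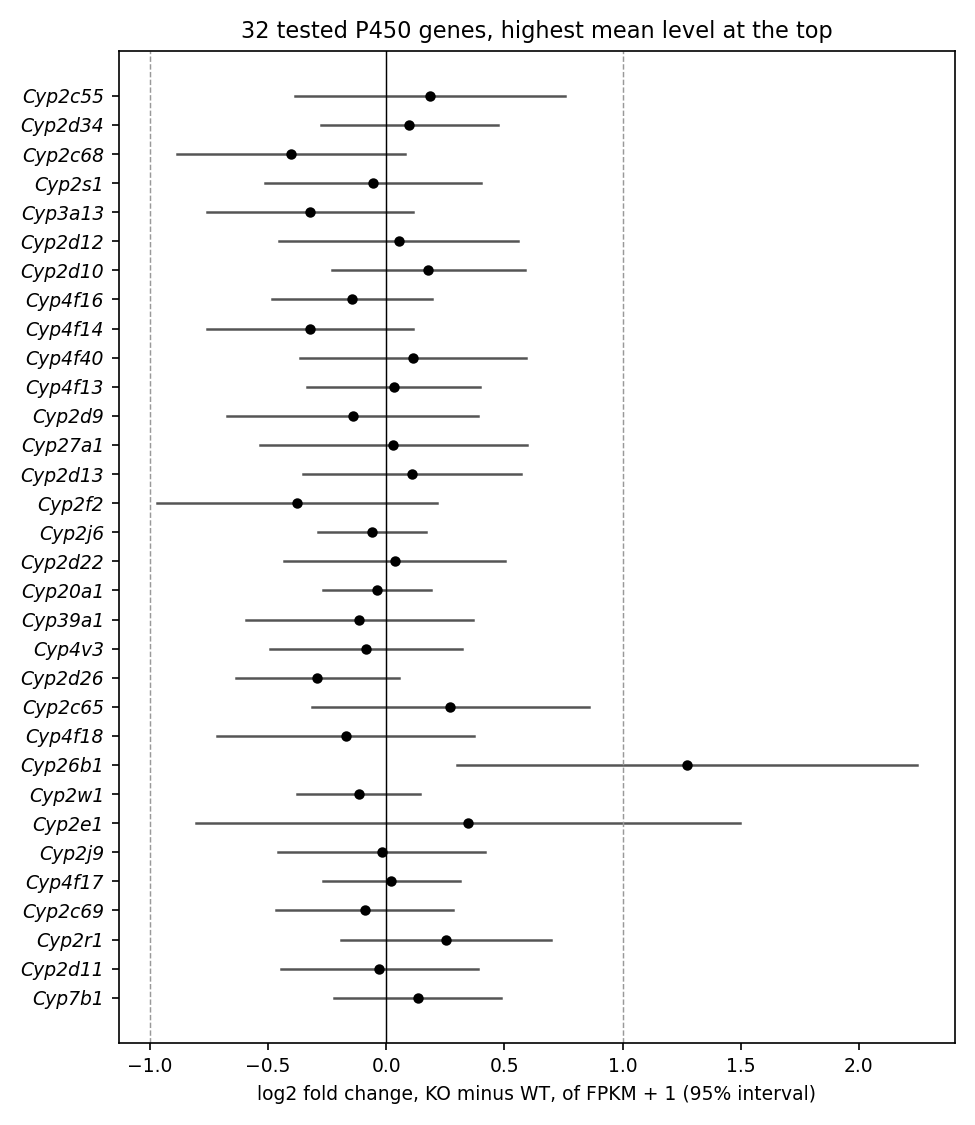
Log2 fold change of FPKM + 1, KO minus WT, for the 32 tested P450 genes, with limma's 95% interval as a line, and dashed lines at 2-fold. All intervals but that of Cyp26b1 (0.30 to 2.25) include 0, and only Cyp26b1 and Cyp2e1 reach past a dashed line.

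Among the family 2 enzymes that oxidise foreign compounds, Cyp2c55 stood highest. It is an arachidonic and linoleic acid hydroxylase of the mouse that drugs can induce in liver and gut. Cyp2c55 read 158.45, 266.18 and 236.01 FPKM in KO replicates 1 to 3, against 170.96, 151.09 and 260.93 in WT replicates 1 to 3. The groups overlapped widely, with KO replicate 1 among the low libraries and WT replicate 3 among the high ones, and the log2 fold change was 0.19 (95% interval -0.38 to 0.76). Cyp2c68 read 30.84, 47.61 and 57.23 FPKM in KO, against 65.63, 55.48 and 54.47 in WT. Its log2 fold change of -0.40 (SE 0.21) was the most negative of the 32, and it ranged from -0.59 without KO replicate 3 to -0.16 without KO replicate 1. Cyp2c65, also of the intestinal Cyp2c cluster, read 3.33, 6.94 and 3.22 FPKM in KO, against 4.25, 3.00 and 2.93 in WT, so that KO replicate 2 alone stood above the others.

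The Cyp2d genes, relatives of the human drug-oxidising CYP2D6, formed the largest group of abundant members. Cyp2d34 read 95.96, 151.80 and 111.90 FPKM in KO, against 103.81, 110.20 and 116.18 in WT. Cyp2d12 read 24.91, 46.09 and 45.74 in KO, against 36.69, 35.21 and 36.53 in WT, and Cyp2d10 read 27.11, 41.85 and 43.16, against 35.29, 29.61 and 32.10. In these genes the KO libraries lay on both sides of the WT libraries, with KO replicate 1 lowest. Cyp2d9 read 12.30, 18.93 and 20.44 FPKM in KO, against 25.33, 16.76 and 15.36 in WT, and the non-coding Cyp2d13 read 11.46, 20.24 and 14.73, against 16.06, 14.19 and 11.82. Cyp2d26 read 5.08, 5.33 and 5.98 in KO, against 8.44, 6.91 and 5.60 in WT, a log2 fold change of -0.29 (SE 0.15).

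Read counts of these clusters carry an uncertainty of their own. Of the 31 tested members with a transcript sequence, 9 had another P450 transcript with 90% identity or more over at least 1000 bases. Cyp2c68 was 98.0% identical to Cyp2c40 over 1724 bases, Cyp2d10 94.4% to Cyp2d11 over 1584 bases, and Cyp2c65 96.4% to Cyp2c66 over 1611 bases. Short reads from such pairs can be assigned to either gene. The submitters name RSEM among their tools but no version of it, and its split of reads within such pairs was not tested. Cyp2c40 read 0.11, 0.00 and 0.22 FPKM in KO, against 0.14, 0.50 and 0.06 in WT, far under Cyp2c68. Cyp2c55 and Cyp2e1 had no such copy, with closest identities of 75.8% (Cyp2c66) and 65.1% (Cyp2c55).

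Outside the clusters, Cyp2s1, an epithelial P450 that metabolises retinoids and eicosanoids, read 31.15, 46.06 and 56.20 FPKM in KO, against 40.99, 44.82 and 49.51 in WT. Cyp2f2, known for bioactivating naphthalene in the mouse airway, read 7.35, 14.25 and 16.43 in KO, against 18.29, 15.32 and 14.51 in WT. Its log2 fold change of -0.38 had an interval of -0.97 to 0.21, and it was -0.057 without KO replicate 1. In both genes KO replicate 1 was by far the lowest of the 6 libraries, and the groups overlapped. Cyp2w1, whose human ortholog is known from colorectal tumours, was low and even, at 1.82, 2.05 and 2.03 FPKM in KO, against 2.25, 2.17 and 2.23 in WT. The groups did not overlap, but the log2 fold change was only -0.12 (SE 0.11). Cyp2j6, an arachidonic acid epoxygenase whose promoter window held the E-box, read 11.50, 11.35 and 11.42 FPKM in KO, against 12.53, 10.83 and 12.54 in WT. Its log2 fold change was -0.06 with an interval of -0.29 to 0.17, among the narrowest of the members.

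Cyp3a13 was the sole family 3 gene under the rule. Family 3 enzymes oxidise many drugs and steroids, and Cyp3a13 is the main one outside the liver in mice. It read 24.01, 39.48 and 40.99 FPKM in KO, against 43.15, 42.94 and 41.82 in WT. All KO values were under all WT values, by as little as 0.83 FPKM, and the difference rested on KO replicate 1. The log2 fold change was -0.32 (SE 0.19, interval -0.76 to 0.11), and without KO replicate 1 it was -0.08.

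Family 4 enzymes, which hydroxylate fatty acids and leukotrienes at the end of the chain, were led by the Cyp4f genes. Cyp4f16 read 19.82, 26.46 and 27.32 FPKM in KO, against 29.40, 23.49 and 28.40 in WT. Cyp4f14, which inactivates leukotriene B4, read 19.65, 23.27 and 15.78 in KO, against 28.63, 27.04 and 18.77 in WT. Replicate 3 was the lowest in each genotype for Cyp4f14, and its log2 fold change was -0.32 (SE 0.19), with a range from -0.50 without WT replicate 3 to -0.18 without KO replicate 3 and -0.21 without WT replicate 1. Cyp4f13 read 15.14, 21.22 and 20.74 FPKM in KO, against 15.84, 18.47 and 21.29 in WT. Cyp4f40 went the other way from most members in KO replicate 1, at 29.01, 18.17 and 15.54 FPKM in KO, against 20.56, 17.47 and 17.87 in WT. Fold changes were positive in 3 and negative in 4 of the 7 tested family 4 members (median -0.08).

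One library stood apart among the abundant members. KO replicate 1 was the lowest of the 6 libraries in 18 of the 32 tested members, against 20.5% of all genes tested, and in 16 of the 21 members at 5 FPKM or more, against 19.8% of all genes at that level. Relative to each gene's own mean over the 6 libraries, on the log2(FPKM + 1) scale, the median of the 21 members was -0.35 in KO replicate 1, 0.09 in KO replicate 2 and 0.15 in KO replicate 3. In WT replicates 1 to 3 it was 0.08, -0.03 and 0.07. The median over all 9253 genes at that level lay between -0.01 and 0.02 in every library. The coefficient of variation within the KO group had a median of 25.2% for the 21 members, against 11.3% for all tested genes at that level, and within the WT group 11.7% against 8.71%. KO replicate 1 also had the lowest Mlxipl value, as it had for 20.5% of all genes tested. A link between Mlxipl and the P450 values was not tested.

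**Figure D3:**
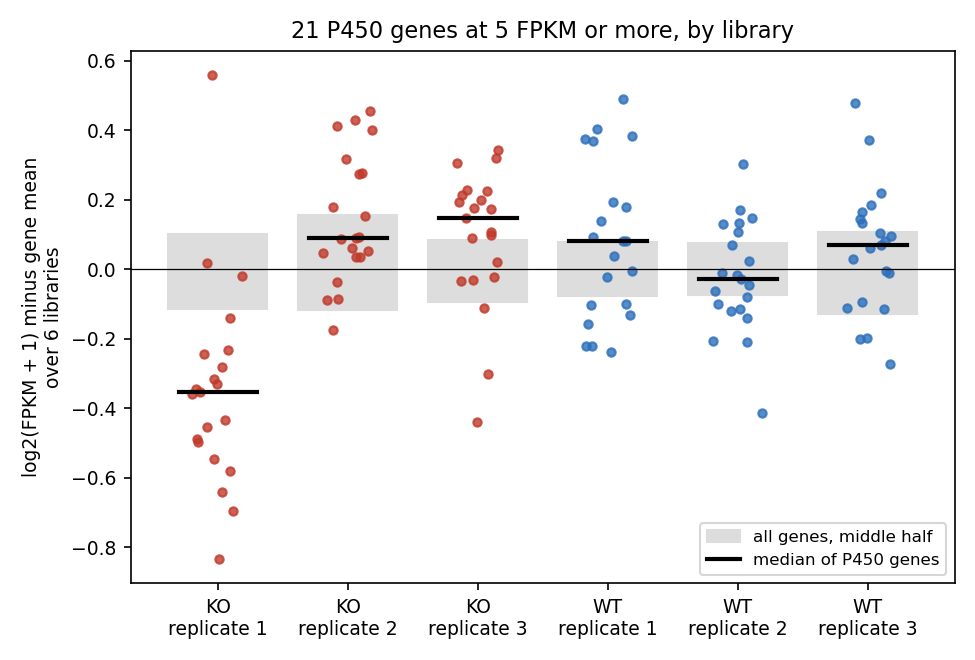
Level of the 21 P450 genes at 5 FPKM or more in each library, as log2(FPKM + 1) minus the gene's mean over 6 libraries, with KO libraries left of WT libraries. Black bars are medians over the 21 genes and grey boxes the interquartile range of all genes at that level, and KO replicate 1 stands apart with a median of -0.35.

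The direction of the P450 genes as a set turned on which library was left out. Without KO replicate 1, 20 of the 32 fold changes were positive and 12 negative, with a median of 0.06. Without KO replicate 2, 7 were positive and 25 negative, with a median of -0.09. Without WT replicate 3, 18 were positive and 14 negative, with a median of 0.03. Without KO replicate 3, 14 were positive and 18 negative, with a median of -0.06. Without WT replicate 1 the counts were 15 and 17 (median -0.02), and without WT replicate 2 they were 13 and 19 (median -0.06). Over all genes tested the median lay between 0.0011 and 0.02 whichever library was left out. Some transcripts outside the P450 genes were also low in KO replicate 1, among them Adh1, an alcohol dehydrogenase, at 487.60, 900.83 and 924.43 FPKM in KO, against 879.46, 827.52 and 876.80 in WT. Sult1a1, a sulfotransferase, read 45.98, 120.03 and 120.14 in KO, against 69.08, 81.49 and 103.60 in WT. The list of 8 colonocyte markers did not share that pattern as a whole, since KO replicate 1 was lowest in 2 of 8, Slc26a3 and Aqp8, and its summed FPKM was 2904.57, 2757.42 and 3073.26 in KO, against 3395.73, 2667.68 and 2603.35 in WT. Markers of squamous epithelium, of which 5 of 5 were matched, summed to 6.91, 2.54 and 1.68 FPKM in KO, against 2.30, 3.04 and 1.13 in WT. KO replicate 1 was the highest, with Krt14 at 3.49 and Krt13 at 2.92 FPKM, while Trp63 was at or under 0.02 in every library. In bulk tissue, fewer cells of a type and less RNA per cell cannot be told apart, and the part of cell make-up, the squamous markers included, in the low P450 values was not tested.

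Cyp2e1, the azoxymethane enzyme, was low in the colon and varied more between mice than between genotypes. It read 3.89, 0.81 and 2.33 FPKM in KO replicates 1 to 3, against 3.47, 0.23 and 1.61 in WT replicates 1 to 3, or about 129, 26.1 and 75.9 reads against 113, 7.3 and 51.3 by the depth estimate. Replicate 1 was highest and replicate 2 lowest in each genotype, and the groups overlapped across nearly their whole range. KO averaged 2.34 ± 1.54 FPKM and WT 1.77 ± 1.63 (SD, n = 3 each), a log2 fold change of 0.35 with an interval of -0.80 to 1.5 (limma adjusted p = 0.9995). Without WT replicate 2 the sign reversed, to -0.15. The interval reaches past 2-fold upward, so a 2-fold higher level in KO was not excluded. With a pseudocount of 0.1 the log2 fold change was 0.71, with an interval of -1.31 to 2.73. That interval did not exclude a 2-fold lower level in KO either. With replicate number as a block the interval was 0.00024 to 0.69 (limma adjusted p = 0.993), but the replicate numbers share no stated source.

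Cyp2e1 is also a transcript of mouse fat cells, and adipocyte genes differed between the same libraries. Adipoq, which encodes adiponectin, read 0.67, 0.14 and 0.46 FPKM in KO, against 0.87, 0.05 and 0.23 in WT. Plin1, the perilipin of lipid droplets, read 0.23, 0.03 and 0.18 in KO, against 0.09, 0.00 and 0.12 in WT, and Cidec 2.49, 0.43 and 0.79, against 1.08, 0.30 and 0.84. For Cyp2e1 and each of these 3 genes, replicate 2 was the lowest of its genotype. Of the 5 adipocyte markers on the list 4 were matched, and their summed FPKM, nearly all from Fabp4, was 35.20, 25.63 and 31.23 in KO, against 33.34, 25.76 and 33.12 in WT. Fabp4 is not restricted to fat cells. The part of adipose tissue in the Cyp2e1 values was not tested.

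**Figure D4:**
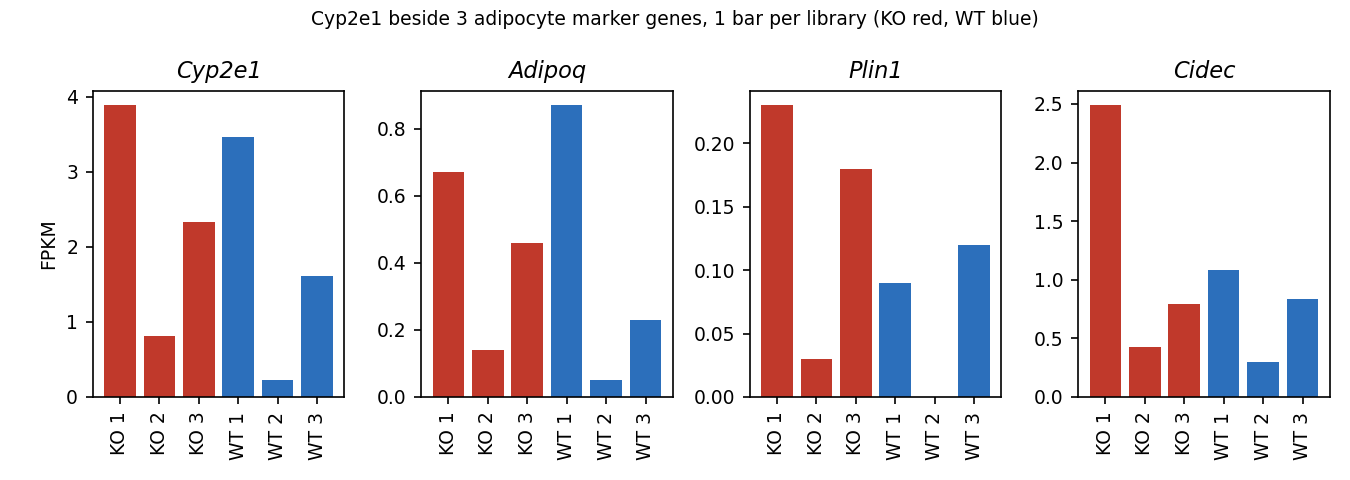
FPKM of Cyp2e1 and of the adipocyte genes Adipoq, Plin1 and Cidec in each library, 1 bar per library, KO (red) left of WT (blue), each panel with its own axis from 0. Replicate 2 has the lowest bar of its genotype in all 4 panels.

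Genes that act beside Cyp2e1 on azoxymethane products were not called. The list held 5 tested genes, 2 higher and 3 lower by fold change in KO, with a median log2 value of -0.0013. Mgmt, which removes the methyl group from guanine, read 2.03, 2.75 and 2.99 FPKM in KO, against 2.19, 1.92 and 2.45 in WT (log2 fold change 0.17, SE 0.15). Aldh1a1, an aldehyde dehydrogenase, read 13.48, 16.06 and 17.78 in KO, against 23.03, 17.74 and 17.30 in WT.

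The dioxin-inducible family 1 genes were close to the limit of detection. Cyp1a1 read 0.52, 0.11 and 0.65 FPKM in KO, against 0.38, 0.13 and 0.56 in WT, and was too low to be tested. Replicate 2 was the lowest in each genotype and replicate 3 the highest. Cyp1b1 read 0.08, 0.06 and 0.00 FPKM in KO, against 0.02, 0.10 and 0.11 in WT. Their receptor gene Ahr was expressed evenly, at 5.61, 5.71 and 7.2 FPKM in KO, against 5.52, 6.51 and 6.52 in WT. Of 5 tested genes of the Ahr list 3 were positive and 2 negative (median 0.00052), and none was called. Nqo1, a quinone reductase induced by both Ahr and Nrf2, read 19.03, 13.85 and 12.99 in KO, against 31.83, 18.92 and 14.53 in WT.

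Cyp26b1 had the largest fold change of the tested members. It encodes an enzyme that breaks down retinoic acid, the vitamin A signal. Cyp26b1 read 1.65, 3.08 and 8.75 FPKM in KO, against 0.91, 1.36 and 0.66 in WT, so each KO library lay above each WT library, and KO replicate 3 far above the others. KO averaged 4.49 ± 3.76 FPKM and WT 0.977 ± 0.355 (SD, n = 3 each). The log2 fold change was 1.27 (SE 0.42, interval 0.30 to 2.25), which did not pass over all genes (limma adjusted p = 0.9995). It was 0.75 without KO replicate 3 and 1.69 without KO replicate 1, and over all alternatives the adjusted p stayed between 0.782 and 0.9999. Only 1 WT library exceeded 1 FPKM, so the gene entered the test mainly through the KO libraries. Cyp26a1, which has the same substrate, was at 0.06, 0.06 and 0.09 FPKM in KO, against 0.00, 0.06 and 0.00 in WT.

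Other retinoid genes gave no common direction. Fold changes were positive in 10 and negative in 5 of the 15 tested, their median was 0.05, and none was called. Rarb, a receptor gene that retinoic acid induces in many cells, read 1.18, 1.45 and 2.16 FPKM in KO, against 1.18, 1.25 and 1.49 in WT. Aldh1a3, which makes retinoic acid, read 21.31, 6.29 and 4.08 in KO, against 4.43, 5.05 and 4.71 in WT. Dhrs9, a retinol dehydrogenase, read 39.71, 7.57 and 2.30 in KO, against 8.84, 7.16 and 9.26 in WT, and Rbp2, the intestinal retinol-binding protein, 18.08, 41.87 and 43.17, against 36.53, 36.82 and 37.64. KO replicate 1 thus stood apart in 3 of these genes, high in Aldh1a3 and Dhrs9 and low in Rbp2. Of 6 smooth muscle markers 5 were highest in KO replicate 3, the library with the most Cyp26b1, and Cnn1 was highest in WT replicate 2. Their summed FPKM was 3003.50, 2794.17 and 4242.16 in KO, against 2615.97, 3576.40 and 2961.94 in WT. Their part in the Cyp26b1 value was not tested.

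**Figure D5:**
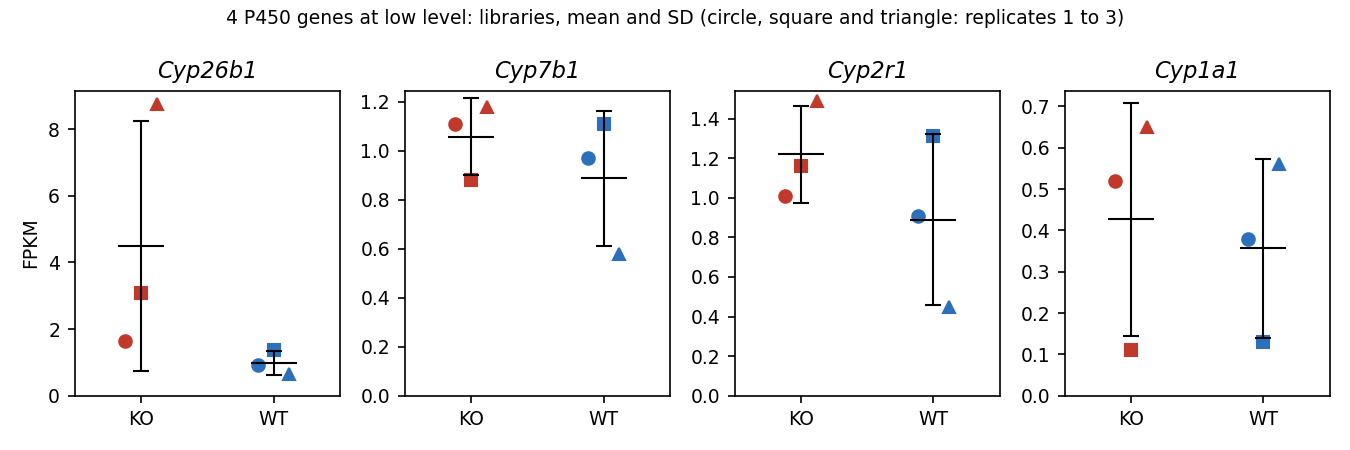
FPKM of Cyp26b1, Cyp7b1, Cyp2r1 and Cyp1a1 in each library (circle, square and triangle are replicates 1 to 3), KO left of WT, with the group mean and SD. Only for Cyp26b1 do the groups not overlap, with KO between 1.65 and 8.75 and WT between 0.66 and 1.36.

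The sterol and bile acid enzymes were led by Cyp27a1, the mitochondrial sterol 27-hydroxylase. Cyp27a1 read 9.61, 20.36 and 17.23 FPKM in KO, against 12.62, 16.10 and 15.65 in WT, with a log2 fold change of 0.03 (SE 0.24). Cyp39a1, which acts on 24-hydroxycholesterol, read 5.60, 8.02 and 8.07 in KO, against 6.90, 6.35 and 10.79 in WT. Cyp7b1, the oxysterol 7-alpha-hydroxylase, was near 1 FPKM, at 1.11, 0.88 and 1.18 in KO, against 0.97, 1.11 and 0.58 in WT. The liver enzymes of bile acid synthesis were near 0, with Cyp7a1 at most 0.04 and Cyp8b1 at most 0.11 FPKM in any library. On the list of other bile acid and oxysterol genes all 10 tested members had positive fold changes (median 0.13), and 0 were called. Over all genes tested, 6986 of 13247 were positive. Nr1h4, the bile acid receptor FXR, read 32.80, 32.60 and 30.62 FPKM in KO, against 25.64, 27.56 and 25.81 in WT. Its groups did not overlap, and its log2 fold change was 0.27 (SE 0.09, limma adjusted p = 0.9995).

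P450 transcripts for vitamin D and steroid hormone enzymes were scarce. Cyp27b1, which makes the active form of vitamin D, read 0.11, 0.18 and 0.23 FPKM in KO, against 0.09, 0.16 and 0.30 in WT, or about 4.8 to 9.8 reads against 3.8 to 12.5. Cyp2r1, a vitamin D 25-hydroxylase, read 1.01, 1.16 and 1.49 in KO, against 0.91, 1.31 and 0.45 in WT. On the vitamin D list fold changes were positive in 3 and negative in 1 of the 4 tested (median 0.14), none called. The receptor gene Vdr was abundant, at 82.23, 125.27 and 119.89 FPKM in KO, against 137.27, 141.59 and 139.03 in WT. All KO values of Vdr were under all WT values, at a log2 fold change of -0.37 (SE 0.16, limma adjusted p = 0.9995). Cyp11a1, which cuts the side chain of cholesterol in the first step of steroid synthesis, read 0.00, 0.06 and 0.09 FPKM in KO, against 0.00, 0.03 and 0.06 in WT. Cyp11b1, which completes corticosterone, was listed at 0 in 5 of the 6 libraries and at 0.02 in KO replicate 2, the value of about 1 read. Nr5a2, a nuclear receptor known to drive both genes in mouse gut, read 8.73, 12.20 and 13.65 FPKM in KO, against 13.40, 15.95 and 16.63 in WT. Nr3c1, the glucocorticoid receptor gene, read 14.92, 14.73 and 16.29 in KO, against 19.09, 17.09 and 18.30 in WT, with groups that did not overlap. Of the 10 tested genes on the local steroid list 1 was positive and 9 negative (median -0.07), none called.

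The shared machinery of the P450 enzymes differed little. Of 20 tested genes for electron donors, heme synthesis and heme breakdown, fold changes were positive in 12 and negative in 8 (median 0.03), and none was called. Por read 40.73, 31.61 and 45.27 FPKM in KO, against 53.22, 48.33 and 40.88 in WT (log2 fold change -0.28, SE 0.15). Alas1, the first enzyme of heme synthesis, read 39.13, 24.63 and 24.76 in KO, against 32.86, 35.07 and 41.90 in WT. Among the receptors and transporters that respond to foreign compounds, 3 of 11 tested genes were positive and 8 negative (median -0.07). Nr1i2, the receptor PXR, read 25.38, 32.14 and 26.85 in KO, against 24.93, 28.36 and 26.21 in WT. Nfe2l2, which encodes Nrf2, read 65.72, 62.36 and 61.92 in KO, against 78.50, 74.05 and 82.78 in WT, with groups that did not overlap and a log2 fold change of -0.30 (SE 0.09, limma adjusted p = 0.9995). Ephx1, the epoxide hydrolase that follows P450 oxidation, read 11.05, 12.89 and 18.20 in KO, against 19.71, 21.52 and 16.01 in WT, and Ephx2 3.95, 5.45 and 7.11, against 7.53, 6.95 and 5.59. The epoxide and eicosanoid list had 1 positive and 6 negative members of 7 tested, with a median of -0.10.

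Clock output genes, some of which encode factors that drive Por, Alas1 and several P450 genes in mouse liver, differed strongly between libraries of 1 genotype. Of 11 tested genes on the list, fold changes were positive in 2 and negative in 9 (median -0.92), and none was called. At an unadjusted p under 0.05 limma counted 2 lower in KO, Usp2 and Per1 (1.7% of all genes). Usp2 read 3.94, 5.10 and 5.20 FPKM in KO, against 14.28, 16.07 and 8.99 in WT. Its groups did not overlap, at a log2 fold change of -1.27 (SE 0.21, limma adjusted p = 0.591). Dbp read 5.77, 0.94 and 6.14 FPKM in KO, against 57.41, 43.06 and 0.95 in WT. WT replicate 3 was thus at the level of KO replicate 2, while WT replicates 1 and 2 were far higher. Por was highest in WT replicate 1 and WT replicate 2, the libraries with the most Dbp, whereas Alas1 was highest in WT replicate 3 and next in KO replicate 1. Cyp2c55 was highest in KO replicate 2 and WT replicate 3, those with the least Dbp, but Cyp2c68, Cyp3a13, Cyp2d9 and Cyp2f2 were highest in WT replicate 1. Among the 21 members at 5 FPKM or more, KO replicate 2 was highest in 6 (26.9% of all genes at that level). WT replicate 1 was highest in 8 (10.8%) and WT replicate 3 in 3 (18.9%). The part of the time of day in these values was not tested.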

How the data were processed

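Distal colon RNA was sequenced in 3 KO and 3 WT mice, grouped by the genotype label. Poly-A RNA was selected, with no strand-marking step named, per the labels' protocols. The authors deposited 1 table of FPKM values, made with HISAT2, RSEM and the mm39 build per the submitters' processing notes, with versions and filters not given in the sources used here. FPKM are not counts, so limma 3.58.1 in R 4.3.3 was used on log2(FPKM + 1), with a mean-variance trend, genotype as the sole term and two-sided Benjamini-Hochberg adjustment over 13247 genes with 1 FPKM or more in at least 3 libraries. A value of 1 FPKM was added before the log, and the threshold was an adjusted p of 0.05. The script was tested on simulated data.

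Depth was fitted to the 1-read steps of short RNA genes, with a length offset of 36 bases. Between 82.5% and 86.7% of the 120 to 148 values tested per library lay within 0.05 of a whole number of reads. Reads per gene are estimates from GENCODE transcript lengths. Promoters and names came from RefSeq on GRCm38.p6, which is not the submitters' build. Closest copies were found with blastn 2.17.0. Nothing says that the libraries came from separate cages or batches, so p-values measure the spread between these mice.

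The members, gene lists and tests were chosen with earlier results of these data known. Named members were Cyp2e1, the 15 of highest mean, the 10 tested of smallest p, and 10 fixed for their function, of which those not listed in the table are not analysed here. Others named appear for a sequence feature, a copy or a role. Of 187 list entries 180 matched. Tables used Python 3.11.15 and pandas 2.3.3, and figures matplotlib 3.10.9.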

Additional observations from a re-analysis of the deposited data

How the results depend on the processing

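No P450 gene and no gene of the lists around them was called under any alternative run: a pseudocount of 0.1, no filter, a filter on a mean of 0.5 FPKM, 2 rescalings, no mean-variance trend, the replicate block, and leaving out each library. The smallest adjusted p of a P450 gene was 0.782, for Cyp26b1 without KO replicate 1. Over all genes, limma called 2 in the comparison as reported, 2 to 3 under the other pseudocount, filters, rescalings and without the trend, 0 with the replicate block (504 at an unadjusted p under 0.05), and 0 to 1 when a library was left out (323 to 807 at an unadjusted p under 0.05). The block changed no call of a P450 gene, and 2 were higher and 1 lower at an unadjusted p under 0.05 with it. The replicate numbers share no stated source, and the deviations of same-numbered libraries from their group means correlated at 0.27, -0.10 and 0.06 over tested genes, so the samples were not treated as pairs. Rescaling reversed no named gene and moved the median of all genes to between -0.01 and 0.00191. Of the 32 tested P450 genes 19 reversed in sign when some library was left out, and 0 under the other alternatives. Among them were Cyp39a1 (-0.25 to 0.096), Cyp4v3 (-0.19 to 0.12), Cyp20a1, Cyp2c69, Cyp2d11, Cyp2d22, Cyp2j9, Cyp4f17 and Cyp4f18. The other P450 genes that reversed, and the list genes that did among those chosen by the naming rule, had log2 fold changes ranging over Cyp2e1 (-0.15 to 0.79), Cyp2d34 (-0.085 to 0.24), Cyp2s1 (-0.24 to 0.17), Cyp2d12 (-0.094 to 0.34), Cyp4f40 (-0.14 to 0.29), Cyp4f13 (-0.071 to 0.18), Cyp2d9 (-0.28 to 0.069), Cyp27a1 (-0.18 to 0.33), Cyp2d13 (-0.092 to 0.29), Cyp2c65 (-0.026 to 0.43), Adh1 (-0.38 to 0.084), Sult1a1 (-0.17 to 0.52), Dhrs9 (-0.82 to 0.99), Rbp2 (-0.41 to 0.20), Ahr (-0.11 to 0.049) and Nr1i2 (-0.019 to 0.15). Mlxipl ranged from -0.60 to -0.30. The libraries limit what can be seen: the median standard error of the tested P450 genes was 0.19 on the log2 scale, against 0.13 for all tested genes, and genes under 1 FPKM rest on few reads.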

Other observations

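Other rows with a P450 symbol fell outside the rule. Cyp51, the sterol 14-demethylase of cholesterol synthesis, read 34.94, 30.64 and 33.67 FPKM in KO replicates 1 to 3, against 33.27, 27.43 and 24.55 in WT replicates 1 to 3. The pseudogene Cyp2d37-ps read 3.85, 6.22 and 2.94 in KO, against 4.05, 5.11 and 4.02 in WT. Cyp4a12a, a fatty acid hydroxylase that is male-biased in mouse kidney and liver, was listed at 0 in 5 of the 6 libraries.

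Cyp4x1 and Cyp4f37 did not meet the filter and were singled out after their values were seen. Cyp4x1 read 0.18, 0.11 and 0.15 FPKM in KO, against 0.26, 0.19 and 0.30 in WT, or about 4.9, 2.9 and 4.0 reads against 7.0, 5.0 and 7.9. Cyp4f37 read 0.19, 0.11 and 0.17 in KO, against 0.27, 0.20 and 0.25 in WT, and is 95.9% identical to the abundant Cyp4f16 over 1607 bases. Without a filter on low values neither was called (limma adjusted p = 0.986 for each).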
